A study of Mus musculus with 6 samples.

Results

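Neurexins, neuroligins and the scaffold proteins that anchor them were examined in N2A cells after knockdown of Pbcas4. The set was defined by gene symbol and held 9 genes (Nrxn2, Nrxn3, Nlgn1, Nlgn2, Nlgn3, Dlg4, Dlg2, Shank1 and Homer1) of the 19938 genes that had a probe annotated with exactly 1 symbol. All 9 were measured, each by 1 probe. N2A is a mouse neuroblastoma line, and the labels give no other cell type. In 3 arrays the cells had received an shRNA construct specific to Pbcas4, and in 3 control arrays they had received a scramble construct in the same way. Pbcas4 is the transcribed remnant in mouse of the gene that still encodes BCAS4 protein in humans. Cells were plated 24 h before a transient transfection and harvested 72 h after it. Each construct carried 1 hairpin sequence, expressed from a U6 promoter, so that effects of lower Pbcas4 and of the hairpin sequence itself cannot be told apart. The probe annotation named Pbcas4 or BCAS4 for 0 probes, and the level of the target was not analysed here.

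Neurexins are presynaptic membrane proteins that reach across the synaptic cleft to neuroligins on the receiving cell. Inside that cell, PDZ-domain scaffolds of the PSD-95 family hold neuroligins and glutamate receptors at the membrane, while Shank and Homer proteins link this layer to deeper signalling and calcium-release machinery. Neurexin genes use alternative promoters and extensive alternative splicing, and Homer1 gives rise to a short activity-induced form. A single expression value per gene sums over such forms.

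The comparison rests on the hairpins, so the arm that precedes the loop is shown for each from the study's oligonucleotide list. Capitals mark the bases that pair with the arm after the loop, 18 in the Pbcas4 hairpin and 17 in the scramble hairpin.
Pbcas4 shRNA: GATCCCTGTTGTGACATGa
scramble: AGATACTCGATCCCGCGc

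Promoter windows of the members are shown where they held a searched motif. RefSeq windows of 300 bases (250 before and 50 after a transcript start, build GRCm38.p6) were found for 6 of the 9 members, 14 windows in all, the others being Nrxn2, Nlgn3 and Shank1. Both strands were searched for 5 motifs. GGGCGG is the GC box, and TATAAA is a core promoter element placed ahead of some start sites. TTCAGCACC is the left part of the RE1 element bound by the repressor REST, TGACGTCA the cAMP response element and CACGTG an E box. GC boxes lay in 3 of the 14 windows, against 35.7% of all windows in the table. One of these belongs to Nlgn2, the gene with the widest difference below, and it is rich in CpG dinucleotides (26, against a median of 7 over all windows). A window of Homer1, whose mean was higher with the shRNA, held 26 as well. A further GC box of Dlg4 and one of Nrxn3 are not shown. Capitals mark the motif in each of the following stretches, and the Dlg4 stretch holds it on the opposite strand.
Nlgn2, chr11:69837956-69837977, minus strand: atccggggGGGCGGggggagag
Nlgn2, chr11:69837849-69837870, minus strand: actccagaGGGCGGgtgggcag
Nlgn2, chr11:69837795-69837816, minus strand: tcggcaggGGGCGGgggaggcg
Dlg4, chr11:70023924-70023945, plus strand: cgcaggcgCCGCCCcccctttc
Nlgn1, chr3:26154123-26154147, minus strand: gattggagTTCAGCACCctggttac
Dlg2, chr7:92062326-92062347, plus strand: tctgctggTATAAAgacattta

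The RE1 part was found in 1 window of Nlgn1, against 0.371% of all windows, and TATAAA in 1 window of Dlg2, against 13.6%. The Dlg2 match began at -60 from the transcript start, and whether any of these matches acts in these cells was not tested. The 3 Dlg2 windows were poor in CpG (1 to 3). The cAMP response element and the E box were in 0 of the 14 windows, against 1.79% and 7.15% of all windows. Nlgn2 and Dlg4 lie close together on chromosome 11, with 19 protein-coding genes between them.

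Values are the deposited log2 expression levels, 1 per probe, and a difference is the mean of the shRNA arrays minus that of the scramble arrays. Array medians ranged from 7.75 to 7.86. Probes for olfactory receptors, which are silent in most cells, served as a gauge of background: the 95th percentile of their 1035 mean levels was 7.19. By this gauge 7 of the 9 members lay above background, and Nrxn3 and Nlgn1 did not. All 11 measured neuroblastoma markers lay above it, among them Hand2 (mean level 12.75) and Phox2a (11.26). Scramble replicate 1 stood apart from the other scramble arrays. Over all probes its Pearson r was 0.990 to 0.993 with the shRNA arrays and 0.987 to 0.988 with scramble replicates 2 and 3. Results that rest on scramble replicate 1 are given with and without it. Within the shRNA group, replicate 1 correlated at 0.989 with replicate 2 and 0.993 with replicate 3, against 0.992 with scramble replicate 1.

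None of the 9 members was called by limma when both an adjusted p under 0.05 and a log2 difference over 0.5 in size were asked for, and 0% of all genes were called. Means were lower in the shRNA arrays for 7 members, against 49.0% of all genes, but several members shared a profile over the arrays. The median difference over the members was -0.24, against 0.003 over all genes. Dlg2 alone had shRNA arrays that did not overlap the scramble arrays and an unadjusted p under 0.05. Not overlapping in the lower direction was found for 7.63% of all genes, and in either direction for 16.8%. An unadjusted p under 0.05 was found for 11.7% of genes in either direction and for 5.46% in the lower direction, so a single member of 9 is close to the share among all genes. With 3 arrays against 3, the exact two-sided permutation test cannot go below p = 0.1. The paper describes transfections in triplicate. Unpaired limma p rest on the spread between arrays of the same construct, which limma moderates with that of all probes. In whole-culture RNA fewer expressing cells and less RNA per cell cannot be told apart.

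**Figure D1:**
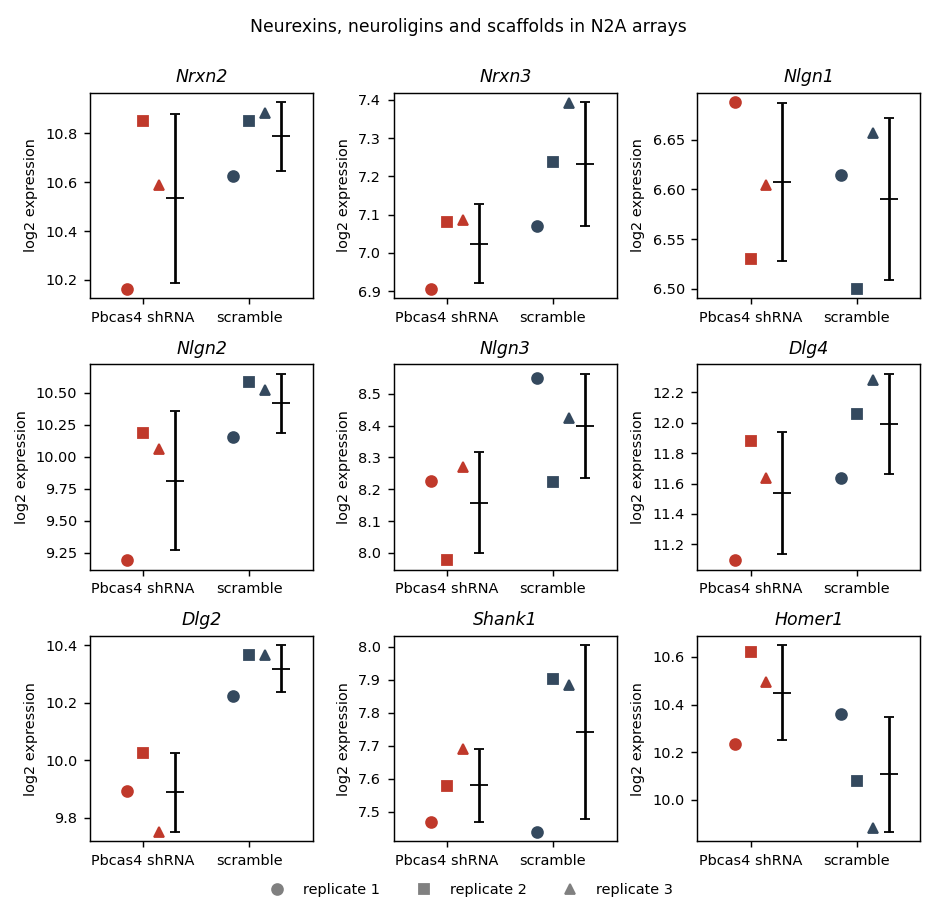
Normalized log2 expression of the 9 genes in each array of N2A cells, 1 panel and 1 axis per gene; symbols are single arrays by replicate number, and bars mark each construct's mean and SD (n = 3). For Dlg2 the shRNA arrays (9.75 to 10.02) lie below the scramble arrays (10.22 to 10.36), and in the other panels the constructs overlap.

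Among the neurexins, both measured genes had lower means in the shRNA arrays, and neither passed the test. Nrxn2 was at 10.16, 10.85 and 10.59 in shRNA replicates 1, 2 and 3 and at 10.63, 10.85 and 10.88 in scramble replicates 1, 2 and 3. The lowest value by far was shRNA replicate 1, while shRNA replicate 2 lay level with scramble replicate 2. The log2 difference was -0.25 (95% interval -0.69 to 0.19, limma adjusted p = 0.730). It was -0.07 without shRNA replicate 1, -0.41 without shRNA replicate 2 and -0.33 without scramble replicate 1. Nrxn3 was at 6.91, 7.08 and 7.09 with the shRNA and at 7.07, 7.24 and 7.39 with the scramble. Scramble replicate 1 lay among the shRNA arrays, and the other scramble arrays lay above all of them. Its difference was -0.21 (95% interval -0.48 to 0.06, limma adjusted p = 0.609) at a level where 94.1% of the olfactory receptor probes were dimmer. With 1 array left out it was -0.13 to -0.29, the widest being without scramble replicate 1.

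Neuroligins ranged from no visible difference to the widest difference of the set. Nlgn2, the neuroligin of inhibitory synapses, was at 9.19, 10.19 and 10.06 with the shRNA and at 10.15, 10.58 and 10.52 with the scramble. The shRNA values overlapped the scramble values only through scramble replicate 1, which lay just below shRNA replicate 2. The means were 9.81 ± 0.54 (SD, n = 3) and 10.42 ± 0.23 (SD, n = 3), a difference of -0.60 (standard error 0.28, 95% interval -1.26 to 0.06), or a factor of 0.658 on the linear scale. Its limma adjusted p was 0.529 (unadjusted p = 0.0667). One array decided much of the size: without shRNA replicate 1 the difference was -0.29, and without shRNA replicate 2 it was -0.79. Without scramble replicate 1 the difference was -0.735 (limma unadjusted p = 0.0546). Nlgn3, found at both excitatory and inhibitory synapses, was at 8.23, 7.98 and 8.27 with the shRNA and at 8.55, 8.22 and 8.42 with the scramble. Here scramble replicate 2 was the low control, lying below shRNA replicates 1 and 3. The difference was -0.24 (95% interval -0.54 to 0.06, limma adjusted p = 0.591). It was -0.15 without shRNA replicate 2, -0.33 without scramble replicate 2 and -0.06 with array weights. Nlgn1, the neuroligin of excitatory synapses, was at 6.69, 6.53 and 6.60 against 6.61, 6.50 and 6.66, near background. Its difference of 0.02 had a 95% interval of -0.20 to 0.23, and its sign turned when shRNA replicate 1 (-0.02) or scramble replicate 2 (-0.03) was left out.

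The PSD-95 family scaffolds Dlg4 and Dlg2 both had lower means in the shRNA arrays. Dlg2, a membrane-associated guanylate kinase close to PSD-95, was at 9.89, 10.02 and 9.75 with the shRNA and at 10.22, 10.36 and 10.36 with the scramble. All shRNA values lay below all scramble values, the gap between the nearest arrays being that of shRNA replicate 2 and scramble replicate 1. Means were 9.89 ± 0.14 (SD, n = 3) and 10.32 ± 0.08 (SD, n = 3), a difference of -0.43 (standard error 0.10, 95% interval -0.68 to -0.18), or a factor of 0.743. The limma unadjusted p of 0.00476 ranked 328 among the 19938 genes. Over all probes the adjusted p was 0.365, which does not pass, and the exact permutation test gave p = 0.1, the smallest it can give. Leaving out any 1 array kept the difference between -0.50 and -0.36.

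Dlg4, which encodes PSD-95 itself, was at 11.09, 11.88 and 11.64 with the shRNA and at 11.63, 12.06 and 12.28 with the scramble. Scramble replicate 1 lay between shRNA replicate 1 and the others, almost at shRNA replicate 3. Its difference was -0.46 (standard error 0.25, 95% interval -1.04 to 0.13, limma adjusted p = 0.606). Without shRNA replicate 1 it was -0.23, and without scramble replicate 1 it was -0.63.

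The deeper scaffolds went opposite ways by mean. Homer1, whose protein ties metabotropic glutamate receptors and Shank to calcium-release channels, had the largest positive difference of the set. It was at 10.23, 10.62 and 10.49 with the shRNA and at 10.36, 10.08 and 9.88 with the scramble. Scramble replicate 1 lay above shRNA replicate 1, and the other scramble arrays lay below all shRNA arrays. Means were 10.45 ± 0.20 (SD, n = 3) and 10.11 ± 0.24 (SD, n = 3), a difference of 0.34 (95% interval -0.04 to 0.72, limma unadjusted p = 0.0693, adjusted p = 0.532), and it was 0.23 without scramble replicate 3 and 0.47 without scramble replicate 1. Shank1, a postsynaptic scaffold that binds Homer, was at 7.47, 7.58 and 7.69 against 7.44, 7.90 and 7.88. Scramble replicate 1 was the lowest array of all. The difference was -0.16 (95% interval -0.51 to 0.19, limma adjusted p = 0.818). It was -0.31 without that array, but -0.08 without scramble replicate 2 and -0.09 without scramble replicate 3.

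**Figure D2:**
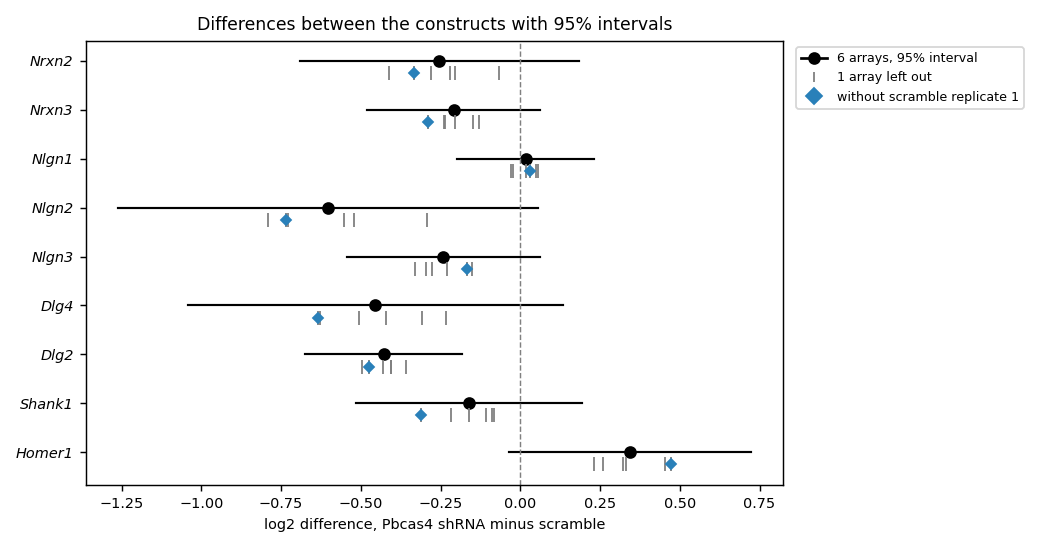
Log2 differences, Pbcas4 shRNA minus scramble, of the 9 genes; circles and lines are the limma estimate and its 95% interval from 6 arrays, ticks are the estimates with 1 array left out, and diamonds those without scramble replicate 1. The interval of Dlg2 (-0.68 to -0.18) alone excludes 0. Those of Homer1, Nlgn2, Nlgn3 and Nrxn3 reach just past it.

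The overlap between the constructs lay largely with scramble replicate 1, an array singled out on these same data. Without it, 7 of the 9 members no longer overlapped, 6 of them lower in the shRNA arrays and Homer1 higher. Over all genes the share was then 40.0% in either direction and 19.7% in the lower direction, against 16.8% and 7.63% with all 6 arrays. Fewer arrays overlap less often by construction. Nlgn1 and Nlgn3 still overlapped. At an unadjusted p under 0.05 there were 5 members without scramble replicate 1 (Nrxn3, Dlg4, Dlg2, Shank1 and Homer1), against 19.4% of all genes, and 0 members were called. Without shRNA replicate 1 instead, 2 members did not overlap (5755 of all genes). The differences of Nlgn2, Dlg4 and Nrxn2 then shrank to -0.29, -0.23 and -0.07, while those of Nlgn3 and Homer1 widened to -0.28 and 0.45. Levels of mitosis genes also set scramble replicate 1 beside the shRNA arrays. The mean level of 18 such genes was 11.86 to 12.03 with the shRNA and 11.90, 11.12 and 10.72 in scramble replicates 1, 2 and 3. The mean level of the 9 members was 8.87, 9.19 and 9.13 with the shRNA and 9.19, 9.31 and 9.37 with the scramble. The part of cell division in the members' differences was not tested.

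Each shRNA array was also set against the scramble array of its number. Same-numbered arrays shared their deviations weakly (r = 0.103 to 0.291), and shRNA replicate 2 correlated more with scramble replicate 3 (r = 0.199) than with scramble replicate 2 (r = 0.137). Nrxn2, Nrxn3, Nlgn2, Nlgn3, Dlg4 and Dlg2 were lower in the shRNA array in all 3 pairs, 6 of 9 members against 18.0% of all genes. The members are not independent of one another, so such counts are no measure of enrichment. Over the 6 arrays Nrxn2, Nlgn2 and Dlg4 correlated with one another at r = 0.948 to 0.958, and Nrxn3 with Dlg4 at 0.946. Other pairs of members correlated less or negatively. For Nlgn2 the pair differences were -0.96, -0.39 and -0.45, and for Dlg4 they were -0.54, -0.18 and -0.65. Those of Dlg2 were -0.33, -0.34 and -0.62. Nrxn2 met the count narrowly, its second pair differing by -0.004. Homer1 was higher in pairs 2 and 3 (0.54 and 0.62) and lower in pair 1 (-0.13). With the replicate number as a block in limma, 3 members had an unadjusted p under 0.05, all of them lower. Among all 19938 genes 2902 did so in either direction, and 7.35% in the lower direction. They were Nlgn2 (adjusted p = 0.271), Dlg2 (adjusted p = 0.274) and Dlg4 (adjusted p = 0.288), and none was called.

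**Figure D3:**
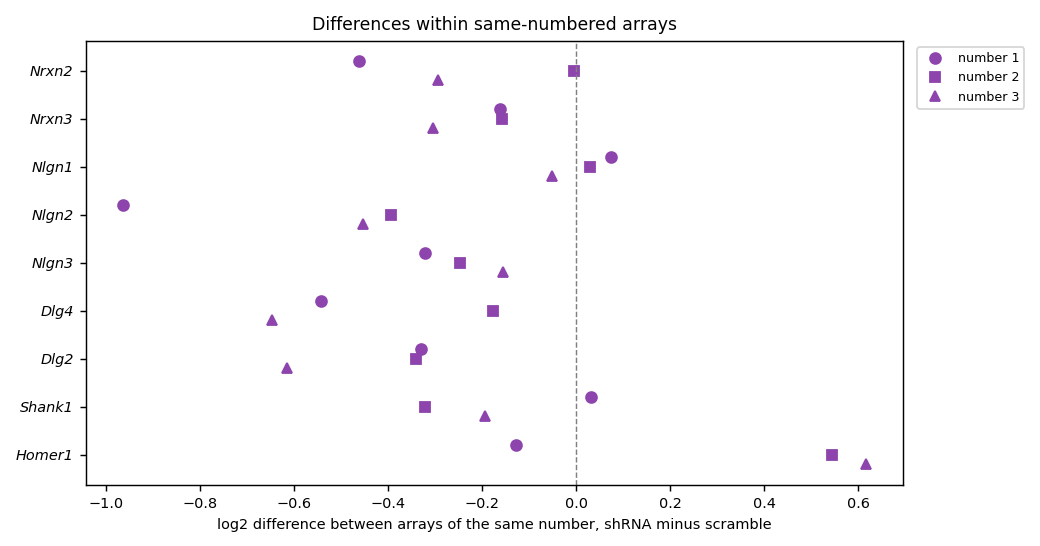
Log2 difference between the shRNA and the scramble array of the same replicate number, for each of the 9 genes; symbols give the number. Nrxn2, Nrxn3, Nlgn2, Nlgn3, Dlg4 and Dlg2 lie at or left of 0 in every pair, and Homer1 lies at -0.13 in pair 1 and at 0.54 and 0.62 in the other pairs.

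Relatives of the members had differences of -0.23 to 0.17. Of 14 listed relatives 12 were measured, among them other Dlg, Shank, Homer, SAPAP and Magi genes, and 7 had lower means with a median difference of -0.01. None of the 12 had an unadjusted p under 0.05, against 11.7% of all genes in either direction. Arrays that did not overlap were found for 0 of the 12, against 16.8% of all genes in either direction. Homer3 was at 9.95 with the shRNA and 9.78 with the scramble (difference 0.17, limma adjusted p = 0.769), and Homer2 was at 7.77 and 7.89 (difference -0.11). Dlgap4, a SAPAP protein that joins PSD-95 to Shank, was at 10.35 and 10.58 (difference -0.23, adjusted p = 0.854), and its lowest array was again shRNA replicate 1 (9.79). Whether the members and these relatives differ was not tested.

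Other proteins that organize synapses gave 24 lower means of 41 measured genes, with a median difference of -0.02. An unadjusted p under 0.05 was reached by 5 of the 41 in the lower direction and 1 in the higher direction. Among all genes 5.46% did so in the lower direction and 11.7% in either direction. In this list 0 passed over all probes (lowest limma adjusted p = 0.401). Cadm4, a homophilic immunoglobulin adhesion protein, was at 9.04 and 9.36 (difference -0.31) and Lrrtm3, a leucine-rich repeat ligand of neurexins, at 8.15 and 8.39 (difference -0.24). Flrt3, a ligand of latrophilins, was at 8.77 ± 0.25 (SD, n = 3) with the shRNA and 8.16 ± 0.28 (SD, n = 3) with the scramble, a difference of 0.61 (adjusted p = 0.409). For each of these genes, named for their low p, the arrays of the constructs did not overlap. Of the 41 genes 3 lay lower and 3 higher without overlap, against 16.8% of all genes in either direction.

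On the presynaptic side, 11 of 20 genes that work with neurexins had lower means, with a median difference of -0.03. Ppfia2, a liprin of the active zone, was at 10.44, 10.13 and 9.95 with the shRNA and at 10.93, 11.02 and 10.91 with the scramble. Every shRNA array lay below every scramble array, scramble replicate 1 included. Of the 20 genes 1 lay lower and 2 higher without overlap, against 16.8% of all genes in either direction. The difference of Ppfia2 was -0.78 (standard error 0.14, limma adjusted p = 0.340). Its paralog Ppfia1 was at 10.73 and 10.40 (difference 0.33, adjusted p = 0.483), and Caskin2, a relative of the CASK-binding protein Caskin1, was at 9.38 and 9.07 (difference 0.31, adjusted p = 0.401).

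Partners of the postsynaptic density had 15 lower means of 24 and a median difference of -0.07. An unadjusted p under 0.05 was reached by 5 of the 24, all lower. Among all genes the share was 5.46% in the lower direction and 11.7% in either direction. Tanc2, a scaffold that binds PSD-95, was at 10.88, 10.38 and 10.31 with the shRNA and at 11.33, 11.41 and 11.26 with the scramble. The constructs were well apart, by a difference of -0.81 (standard error 0.16, limma adjusted p = 0.348). Of the 24 genes 5 lay lower and 1 higher without overlap, against 16.8% of all genes in either direction. Lgi1, a secreted protein joined to PSD-95 through Adam22, was at 10.96 and 11.88 (difference -0.92, adjusted p = 0.376), and Kcna4, a potassium channel that PSD-95 clusters, was at 6.49 and 6.94, below the background gauge (difference -0.45, adjusted p = 0.383).

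Of 12 measured genes of the inhibitory postsynapse, where Nlgn2 acts, 8 had lower means with a median difference of -0.07, and only 4 of the 12 lay above the background gauge. Insyn1, a protein of the inhibitory postsynaptic complex, was at 8.93 ± 0.07 (SD, n = 3) and 9.43 ± 0.08 (SD, n = 3), a difference of -0.50 (limma adjusted p = 0.344). Shisa7, an auxiliary protein of GABA-A receptors, was at 9.12 and 9.81 (difference -0.68, limma adjusted p = 0.344). The study selected it as significantly down-regulated on these arrays, so its direction is no independent evidence. Gphn, which encodes the gephyrin scaffold that Nlgn2 binds, was at 11.53 and 11.67 (difference -0.14, adjusted p = 0.670).

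Activity-regulated genes were examined because one form of Homer1 is induced by activity. Of the 10, 6 had higher means, with a median difference of 0.03. Fosb was at 8.83 and 8.51 (difference 0.32, limma adjusted p = 0.421) and Fos at 8.37 and 8.02 (difference 0.34, limma adjusted p = 0.431). These were the 2 genes of the 10 without overlap between the constructs, against 16.8% of all genes in either direction. Nr4a1 was at 10.18 and 9.91 (difference 0.27, adjusted p = 0.728).

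**Figure D4:**
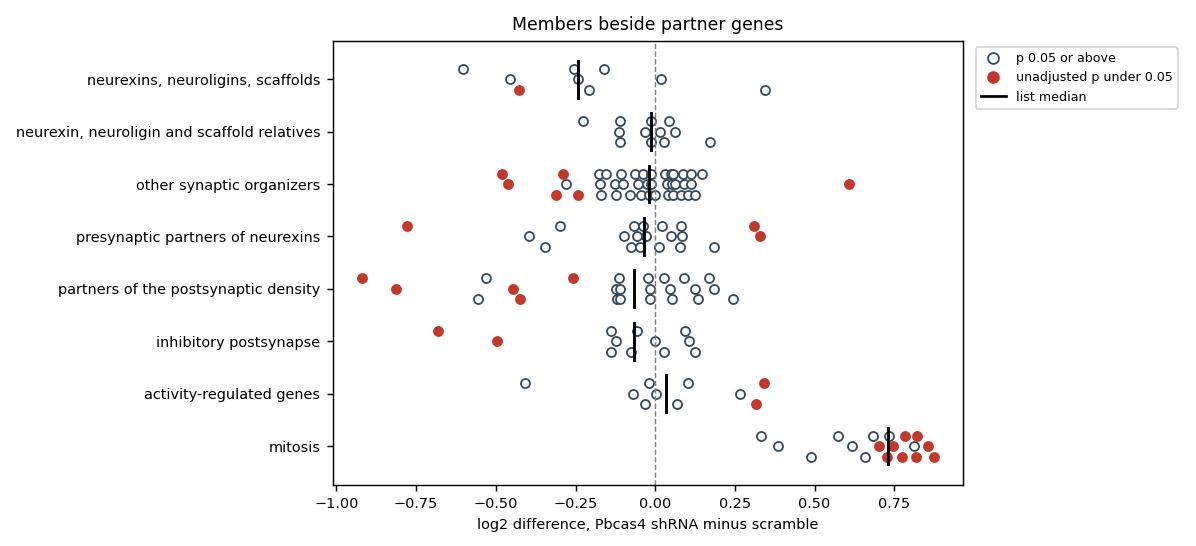
Log2 differences, Pbcas4 shRNA minus scramble, of the 9 members and of the measured genes of 7 lists; each circle is a gene, filled where the unadjusted limma p was under 0.05, and bars are list medians. The members have a median of -0.24, the synaptic partner lists have medians of -0.07 to -0.01, and mitosis genes lie to the right of 0 with a median of 0.73.

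The genes whose profile over the 6 arrays was most like that of a member were named for the 3 members with the lowest unadjusted p. For Dlg2 these were Tgfbr1 (Pearson r = 0.994, difference -0.49), Adgrf4 (0.993, -0.61) and Lamtor2 (0.992, -0.14), and 137 genes had an r over 0.95. For Nlgn2 they were Selenon (0.998, -0.40), Tmem229b (0.998, -0.50) and Folr1 (0.998, -0.25), among 416 genes with an r over 0.95. Homer1 was followed most closely by Hs2st1 (0.998, 0.27), Papolg (0.998, 0.14) and Recql5 (0.992, 0.19), among 129 such genes. With 6 arrays shared by every gene, such values describe these arrays only.

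Of 29 measured markers of other cell types, 14 lay above the background gauge. Of 7 macrophage markers 6 lay below it and Cd68 above it (mean level 7.97), and the mean level of the list was 6.40 to 6.55 with the shRNA and 6.45 to 6.53 with the scramble. Glial markers had 4 of 8 above the gauge and mean levels of 7.15 to 7.39 and 7.26 to 7.39, with Mbp (8.34), Sox10 (7.95), Mog and S100b above it and Gfap, Aqp4, Olig2 and Slc1a3 below it. Epithelial markers had 4 of 7 above it (7.46 to 7.61 and 7.45 to 7.61), with Krt8 (8.95), Cldn4 (8.37), Krt5 and Krt18 above it and Epcam, Cdh1 and Krt14 below it. Fibroblast markers had 5 of 7 above it, with mean levels of 7.31 to 7.42 with the shRNA and 7.06 to 7.36 with the scramble, with Col1a1 (8.57), Col1a2 (8.39), Col3a1 (8.19), Pdgfra and Dcn above it and Fap and Lum below it. Pdgfra of this list was at 8.18 and 7.62 (difference 0.55, limma adjusted p = 0.371). Neuroblastoma markers had lower means for 9 of 11, with a median difference of -0.22 (list levels 11.26 to 11.43 and 11.58 to 11.84). Th was at 8.86 and 9.94 (difference -1.08, limma adjusted p = 0.363) and Stmn2 at 13.49 and 13.84 (difference -0.35, limma adjusted p = 0.394). Dbh, whose arrays overlapped, was at 10.31 and 11.66 (difference -1.34, limma adjusted p = 0.433). Phox2a (difference 0.05) and Elavl4 (difference 0.08) had higher means. The part of these markers in the members' differences was not tested.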

How the data were processed

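The authors deposited normalized log2 expression, 1 value per probe, from Affymetrix Mouse Gene 1.0 ST arrays. The labels and methods name limma, but how probes were background-corrected, summarized and normalized is not given in the sources used here. The table held 35556 probes (21789 with exactly 1 symbol, 1621 with several, 12146 with none). Of several probes for a gene, the brightest by mean over the 6 arrays was used. limma 3.58.1 in R 4.3.3 (lmFit, eBayes, 1 term for the construct) was fitted to all probes, with two-sided p adjusted by Benjamini-Hochberg across the whole table, and tested on simulated data. Calls needed both an adjusted p under 0.05 and a log2 difference over 0.5 in size, the reading given here to the methods' variance between conditions. A filter on probes by variance before adjustment is another reading and was not run. The paper reports differentially expressed genes from these arrays, whereas the main fit here called 0 genes. The reason was not tested. Arrays give no molecule counts, so their number limits the precision.

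The members and lists were chosen with earlier results of these data known. Named beside the members are, per list, the genes with the lowest unadjusted p (up to 3), and genes most like 3 members by Pearson r. For mitosis and for marker lists other than neuroblastoma fewer are named. Some marker genes were chosen after their values were seen. Both neuroblastoma markers with higher means are named as well. Of 191 list entries 177 matched a measured gene, by symbol or through RefSeq synonyms (GRCm38.p6). The replicate numbers are not explained by the labels. Deviations of same-numbered arrays correlated at 0.291, 0.137 and 0.103 (shRNA replicate 2 with scramble replicate 3 at 0.199). Every main difference, interval and p is unpaired, and the numbers served as pairs only for the pair differences and the replicate block. Alternatives were quantile normalization, median centring, a trended and robust variance, array weights, the replicate block, a dim-probe filter, averaging each gene's probes, no size criterion and leaving out arrays. Figures were drawn with matplotlib 3.10.9.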

Additional observations from a re-analysis of the deposited data

How the results depend on the processing

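No member was called under any alternative but array weights, where 1 was. With array weights, which gave shRNA replicate 3 a weight of 5.32 and scramble replicate 2 one of 2.39 against 0.353 to 0.875 for the others, Dlg2 had a difference of -0.57 (limma adjusted p = 0.0175) and was the member called; Homer1 had 0.43 (adjusted p = 0.0375), under the size criterion. Nlgn3 went from -0.24 to -0.06 (adjusted p = 0.683). The same fit called 1320 genes, against 0 without weights. Members at an unadjusted p under 0.05 numbered 6 with array weights (6505 of all genes), 2 with quantile normalization (2417 of all genes), 3 with the replicate block (2902 of all genes) and 5 without both arrays of number 1 (4221 of all genes), against 1 (2329 of all genes); leaving out 1 array gave 1 to 5, the most without scramble replicate 1 (3866 of all genes). Members whose arrays did not overlap numbered 7 without both arrays of number 1 (11071 of all genes) and 1 to 7 when 1 array was left out, the most without scramble replicate 1, and fewer arrays overlap less often by construction. The replicate block changed no adjusted call. The members with lower means numbered 6 to 8 under every alternative run on that count, the 6 with the dim-probe filter, which removed Nrxn3 and Nlgn1. The difference of Nlgn1 changed sign without shRNA replicate 1, without scramble replicate 2 (range over single arrays left out -0.028 to 0.056) and without both arrays of number 1 (-0.011); the cause was not tested. The other 8 members kept their direction under every alternative in which they were fitted. Quantile normalization and centring moved the median of all genes from 0.003 to 0.01 and 0.03.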
